A study of Mus musculus with 2 samples.

Results

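The genes described here encode the enzymes that make serine and pass its carbon through folate. They are the 9 genes Phgdh, Psat1, Psph, Shmt1, Shmt2, Mthfd1, Mthfd1l, Mthfd2 and Aldh1l2, taken by gene symbol from a deposited table of 54532 genes, in which each symbol stood once. They were measured by RNA sequencing in CMT167R cells, a line derived from the mouse lung carcinoma line CMT167 that the labels describe as resistant to anti-PD1, antibody treatment against PD1, an inhibitory receptor on T cells. The PKCi library came from cells exposed for 24 h to PKCi, as the labels name the compound, at 50 nM, and the CON library from untreated cells of the same line. There was 1 library per group, so no difference has a replicate check and no p-value is given. The labels say neither which compound this is nor how the resistant line was derived, and say nothing of a vehicle in the untreated culture.

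Serine is made from the glycolytic intermediate 3-phosphoglycerate in the cytosol, by Phgdh, Psat1 and Psph in turn. Serine hydroxymethyltransferases then split serine to glycine and load its side-chain carbon onto tetrahydrofolate, and the Mthfd enzymes oxidise and reduce that carbon. The chain exists in parallel in the cytosol and in mitochondria, and it feeds purine and thymidylate synthesis and supplies reduced cofactors. Many tumours, lung carcinomas among them, express these enzymes highly.

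All 9 genes were lower in the PKCi library, by between 1.26-fold (Mthfd1l) and 2.51-fold (Mthfd1). The cytosolic folate genes and the first serine synthesis genes, Phgdh and Psat1, were 1.91-fold to 2.51-fold lower, and Psph and the 4 mitochondrial folate genes were 1.26-fold to 1.41-fold lower. Together the 9 genes took 0.164% of all gene counts in the PKCi library and 0.298% in the CON library (95% Wilson interval of the CON share 0.295% to 0.301%). The summed level was thus 1.81-fold lower in the PKCi library (95% interval 1.78 to 1.84). In bulk RNA, fewer cells with a message and less message per cell cannot be told apart.

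The PKCi library held 16071153 gene counts and the CON library 16090186. Levels between libraries are given as CPM, counts scaled to a library total of 1000000, so that 16.1 counts in either library made 1 CPM. Levels between genes are given as TPM, which also divides by the gene length listed in the table. A fold is the plain ratio of CPM. Its 95% interval comes from the counts of these libraries and covers counting error only, because each group had 1 library. Molecules were not tagged and reads of 1 molecule may repeat, so the interval can be too narrow even for that error. All 9 genes had at least 402 counts in each library. Of 6 epithelial and carcinoma markers, all reached 1 CPM, led by Krt8 at 1182 CPM in the PKCi library and 933 CPM in the CON library. Epcam (6.28 and 3.48 CPM in the PKCi and CON libraries) and Cdh1 (3.36 and 2.92 CPM in that order) were low. All 6 lung epithelial markers were under 1 CPM, with Nkx2-1, Sftpc, Sftpb and Scgb1a1 at 0 counts in both libraries. One of the labels' protocols speaks of retinas. The 10 retina markers, however, summed to 1 count in the PKCi library and 3 counts in the CON library. Summed marker levels in the PKCi and CON libraries were 3.17 and 8.27 CPM for 8 leukocyte markers, nearly all of it Lyz2, 35.9 and 100 CPM for 6 fibroblast markers, mostly Pdgfrb (24.4 and 88.4 CPM), and 1.18 and 0.621 CPM for 4 endothelial markers. The leukocyte markers Ptprc, Cd3e, Ncr1, Itgam and Adgre1 were at 0 counts in both libraries. Of the 4 measured fibroblast markers, Pdgfrb and Col1a1 were lower in the PKCi library, whereas Pdgfra (6.04 and 2.67 CPM in the PKCi and CON libraries) and Dcn (17 and 1 counts in that order) were higher. The part of the fibroblast markers in the differences was not tested.

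**Figure D1:**
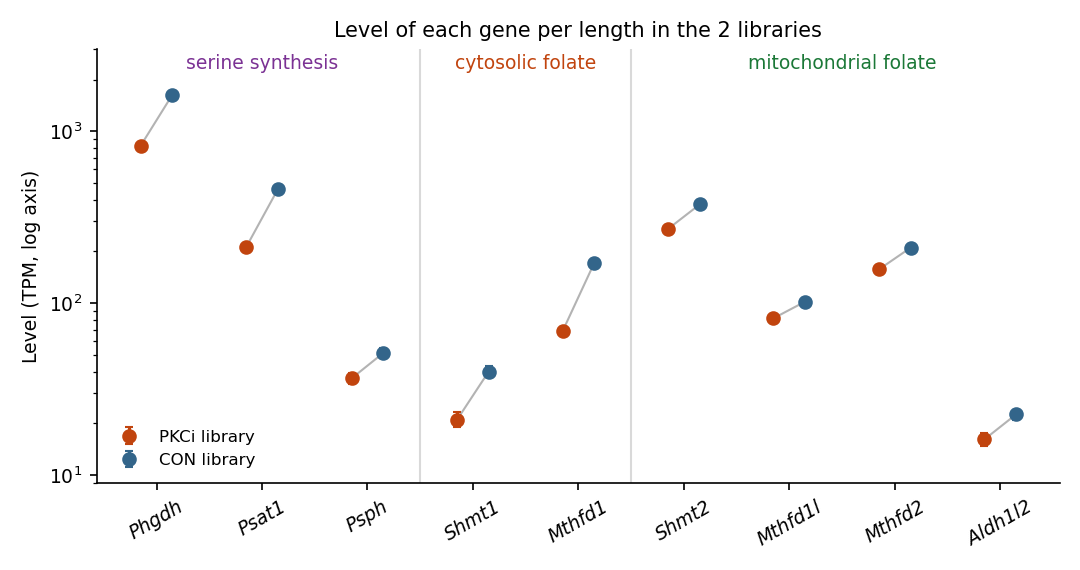
Level of each of the 9 genes in TPM (log axis) in the PKCi library (left point of each pair) and the CON library (right point), with 95% counting intervals that are mostly smaller than the points. Phgdh was the highest in both libraries, at 826 and 1632 TPM, and every gene had its lower level in the PKCi library.

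Phgdh (ENSMUSG00000053398, chromosome 3 from 98313170 to 98339990, minus strand of GRCm38) encodes 3-phosphoglycerate dehydrogenase, which commits the glycolytic intermediate to serine. It had 10104 counts in the PKCi library and 20096 in the CON library, which is 629 and 1249 CPM. The level in the PKCi library was 1.99-fold lower (95% interval 1.94 to 2.03). In the CON library Phgdh was the gene with the 62nd highest CPM of the whole table, and in the PKCi library it held place 186.

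Psat1 (ENSMUSG00000024640, chromosome 19 from 15904678 to 15947337, minus strand), the transaminase that gives phosphoserine its amino group from glutamate, had 4436 counts in the PKCi library and 9697 in the CON library (276 and 603 CPM). It was 2.18-fold lower in the PKCi library (95% interval 2.11 to 2.26). Psat1 and Phgdh kept nearly the same proportion to each other. The Psat1 to Phgdh ratio per length was 0.257 in the PKCi library and 0.282 in the CON library, a ratio of ratios of 0.910 (95% interval 0.871 to 0.950). Psph (ENSMUSG00000029446, chromosome 5 from 129765558 to 129787449, minus strand), the phosphatase of the last step, had 778 counts in the PKCi library and 1101 in the CON library (48.4 and 68.4 CPM). Its level was 1.41-fold lower (95% interval 1.29 to 1.55), and its ratio to Phgdh was 1.41 times higher in the PKCi library (95% interval 1.28 to 1.55). The difference was thus smaller for the last enzyme of serine synthesis than for the enzymes before it. Psph overlaps the start of Cct6a on the opposite strand by 452 bases. Cct6a, a chaperonin subunit gene, was at 219 CPM in the PKCi library and 403 CPM in the CON library, and whether the counting used strand is not given in the sources used here.

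Among the cytosolic folate genes, Mthfd1 had the lowest ratio of the 9 genes. Mthfd1 (ENSMUSG00000021048, chromosome 12 from 76255298 to 76319803, plus strand) encodes an enzyme with dehydrogenase, cyclohydrolase and formyltetrahydrofolate synthetase activities. It had 1500 counts in the PKCi library and 3765 in the CON library (93.3 and 234 CPM), 2.51-fold lower with PKCi (95% interval 2.36 to 2.66). Shmt1 (ENSMUSG00000020534, chromosome 11 from 60788104 to 60811718, minus strand), the cytosolic serine hydroxymethyltransferase, had 402 counts in the PKCi library and 770 in the CON library (25.0 and 47.9 CPM). That is 1.91-fold lower (95% interval 1.69 to 2.16), and the interval of Shmt1 overlaps those of Phgdh and Psat1. The end of Shmt1 overlaps by 184 bases that of Smcr8 on the opposite strand, which was 1.40-fold higher in the PKCi library (121 and 86.8 CPM).

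The mitochondrial folate genes differed less, and by similar amounts. Shmt2 (ENSMUSG00000025403, chromosome 10 from 127517123 to 127522444, minus strand), the mitochondrial serine hydroxymethyltransferase, had 4129 counts in the PKCi library and 5782 in the CON library (257 and 359 CPM). It was 1.40-fold lower (95% interval 1.34 to 1.46). Mthfd2 (ENSMUSG00000005667, chromosome 6 from 83305691 to 83325908, minus strand), a dehydrogenase and cyclohydrolase known for high expression in embryos and tumours, had 2698 counts in the PKCi library and 3628 in the CON library (168 and 225 CPM). It was 1.34-fold lower (95% interval 1.28 to 1.41). Mthfd1l (ENSMUSG00000040675, chromosome 10 from 3973118 to 4167081, plus strand), which releases formate from the mitochondrial pathway, had 1780 counts in the PKCi library and 2248 in the CON library (111 and 140 CPM). At 1.26-fold lower (95% interval 1.18 to 1.34) it had the smallest difference of the 9. Aldh1l2 (ENSMUSG00000020256, chromosome 10 from 83487450 to 83534140, minus strand) oxidises the mitochondrial formyl group to carbon dioxide and yields NADPH. It had 595 counts in the PKCi library and 835 in the CON library (37.0 and 51.9 CPM), 1.40-fold lower (95% interval 1.26 to 1.56). The counting intervals of these 4 folds overlap one another, except those of Shmt2 and Mthfd1l, which meet at 1.34. Aldh1l2 shares 1056 bases with D10Wsu102e on the opposite strand, which was at 54.8 CPM in the PKCi library and 59.7 CPM in the CON library.

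**Figure D2:**
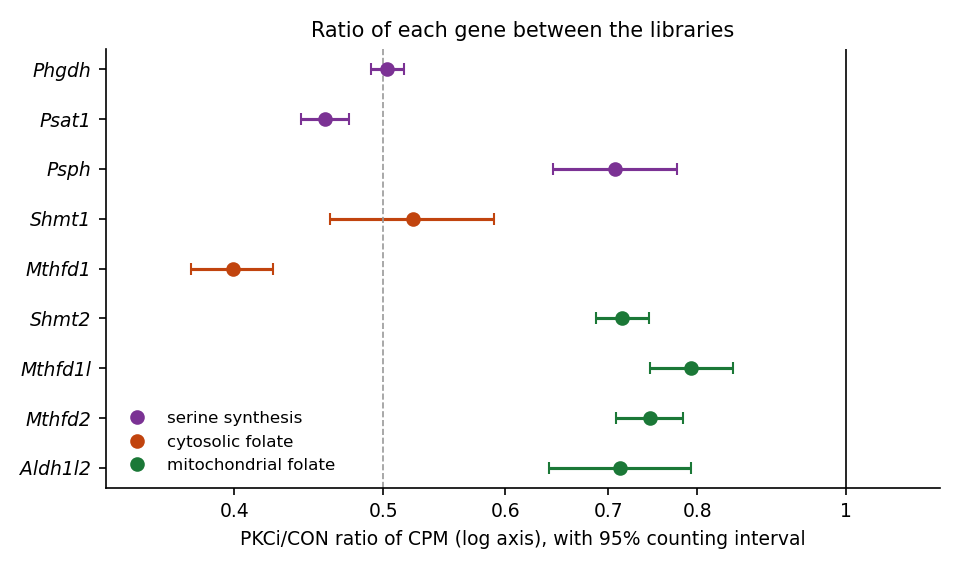
Ratio of CPM between the PKCi and CON libraries for each gene (log axis), with 95% counting intervals; the dashed line marks 0.5 and the solid line no difference. Mthfd1, Psat1, Phgdh and Shmt1 lie between 0.399 and 0.523, and the other 5 genes between 0.707 and 0.793.

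Counts past a fixed size were set against all genes. On the log2((PKCi + 1)/(CON + 1)) scale in CPM, 12273 genes were measured, which means that they reached 1 CPM in the PKCi library, the CON library or both, and all 9 genes were among them. Of the 9, Mthfd1 (log2 ratio −1.32) and Psat1 (−1.12) were at least 2-fold lower, which is 2 of 9 against a background of 5.13% of measured genes. Phgdh, at −0.99, lay just short of this size and passed it with TMM scaling, which made 3 of 9. None of the 9 was at least 2-fold higher, a size reached by 6.53% of measured genes. At a size of 1.5-fold, 4 of the 9 were lower, against 16.7% of measured genes, and 0 were higher, against 16.8%. All 9 log2 ratios were below 0, as were 50.8% of those of measured genes. The median over the 9 genes was −0.49, and over all measured genes it was −0.01, with quartiles at −0.41 and 0.39. Of the measured genes, 257 had a log2 ratio at or below that of Mthfd1, 425 at or below that of Psat1 and 653 at or below that of Phgdh, whereas 3564 were at or below that of Mthfd1l. Among the 5368 genes that reached 47.9 CPM in a library, the level of Shmt1, 5.23% were at least 2-fold lower, and the median was −0.07.

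**Figure D3:**
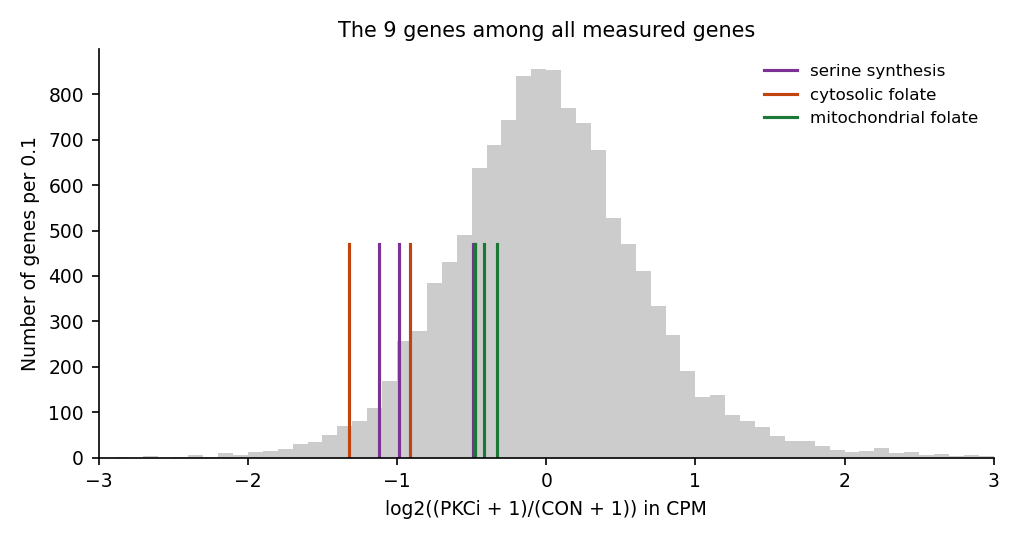
Number of measured genes per bin of 0.1 in log2((PKCi + 1)/(CON + 1)) (grey), with a vertical line for each of the 9 genes coloured by its place in the pathway. The cytosolic folate genes, Phgdh and Psat1 lie between −1.32 and −0.91, and Psph and the mitochondrial folate genes between −0.49 and −0.33, inside the left flank of the distribution.

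A ratio of counts of 2 genes within a library does not depend on how the libraries are scaled. The ratios of Shmt2 to Shmt1 and of Mthfd1l to Mthfd1 moved toward the mitochondrial gene, whereas that of Aldh1l2 to Aldh1l1 did not. Per length, Shmt2 stood at 12.8 times Shmt1 in the PKCi library and 9.38 times in the CON library, a ratio of ratios of 1.37 (95% interval 1.20 to 1.56). Mthfd1l stood at 1.19 times its cytosolic relative Mthfd1 in the PKCi library and 0.598 times in the CON library, a ratio of ratios of 1.99 (95% interval 1.82 to 2.17). The order of this pair was thus opposite in the 2 libraries. Aldh1l2 stood at 12.8 times its cytosolic relative Aldh1l1 in the PKCi library and 20.9 times in the CON library. That ratio of ratios, 0.611, lay the other way, with an interval that includes 1 (0.335 to 1.11). Aldh1l1 had only 28 counts in the PKCi library and 24 in the CON library. Within the mitochondrial chain, the ratio of Mthfd2 to Mthfd1l was 1.93 in the PKCi library and 2.05 in the CON library. Its ratio of ratios, 0.939, has an interval that includes 1 (0.867 to 1.02), as does that of Aldh1l2 to Mthfd1l at 0.900 (0.795 to 1.02). Differences of these sizes were not detectable at this depth. Summed over the genes of each compartment, a step added after the values were seen, mitochondrial to cytosolic folate counts were 4.84 in the PKCi library and 2.75 in the CON library. The ratio of these ratios was 1.76 (95% interval 1.65 to 1.87). Against the summed serine synthesis genes it was 1.49 (95% interval 1.44 to 1.54). The serine sum is mostly Phgdh and Psat1, since Psph gave 1101 of its 30894 counts in the CON library. Psph was 1.41-fold lower in the PKCi library, much as Shmt2 was (1.40-fold). The cytosolic sum is likewise mostly Mthfd1, with 3765 of 4535 counts in the CON library.

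**Figure D4:**
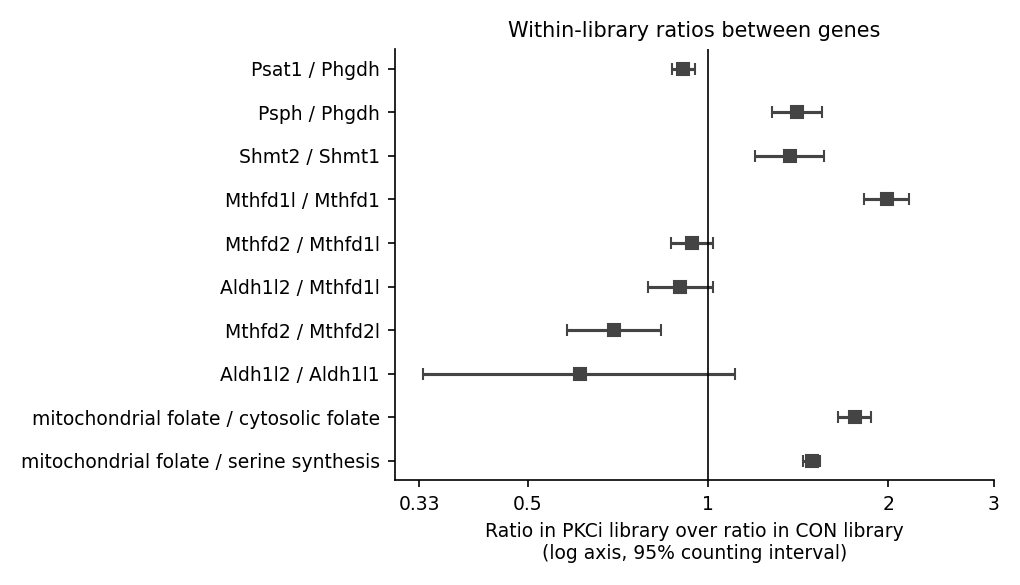
Ratio of 2 genes, or of 2 summed groups, in the PKCi library divided by the same ratio in the CON library (log axis, 95% counting intervals, solid line at 1). Mthfd1l / Mthfd1 has the highest value, 1.99, and the 2 bottom lines show the mitochondrial group against the cytosolic and serine synthesis groups at 1.76 and 1.49.

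The order of the 9 genes by level per length was similar in both libraries. In the PKCi library it ran Phgdh (826 TPM), Shmt2 (270), Psat1 (212), Mthfd2 (157), Mthfd1l (81.6), Mthfd1 (68.6), Psph (36.5), Shmt1 (21.0) and Aldh1l2 (16.1). In the CON library it ran Phgdh (1632 TPM), Psat1 (460), Shmt2 (375), Mthfd2 (210), Mthfd1 (171), Mthfd1l (102), Psph (51.3), Shmt1 (40.0) and Aldh1l2 (22.5). Per length, Psat1 and Shmt2 had exchanged places, and so had Mthfd1 and Mthfd1l. The exchange of Psat1 and Shmt2 rests on the listed lengths, since in CPM Psat1 stood above Shmt2 in the PKCi library (276 and 257 CPM) as in the CON library (603 and 359 CPM). No neighbours in either order had overlapping counting intervals, although error between cultures was not measured. The related isozymes Mthfd2l and Aldh1l1 were low in both libraries. Mthfd2l, a mitochondrial relative of Mthfd2, was at 16.9 CPM in the PKCi library and 15.8 CPM in the CON library (1.07-fold, 95% interval 0.897 to 1.27). Aldh1l1, the cytosolic relative of Aldh1l2, had 28 counts in the PKCi library and 24 in the CON library. The Mthfd2 to Mthfd2l ratio per length was 19.0 in the PKCi library and 27.2 in the CON library, a ratio of ratios of 0.697 (95% interval 0.581 to 0.836).

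The promoter windows of the genes with the 3 lowest ratios (Mthfd1, Psat1 and Phgdh) and of the gene with the smallest difference (Mthfd1l) are shown to set sequences beside a strong and a weak difference. They are from RefSeq on GRCm38.p6, run 5′ to 3′ from 250 bases before to 50 bases after the annotated start, and carry in capitals every match to a searched motif on either strand.
Mthfd1, chr12:76254982-76255281, plus strand: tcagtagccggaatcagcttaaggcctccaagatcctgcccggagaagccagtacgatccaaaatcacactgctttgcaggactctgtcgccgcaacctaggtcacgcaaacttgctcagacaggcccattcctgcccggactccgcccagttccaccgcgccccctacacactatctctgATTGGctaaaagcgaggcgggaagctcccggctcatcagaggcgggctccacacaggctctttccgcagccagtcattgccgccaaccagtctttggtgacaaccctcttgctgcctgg
Psat1, chr19:15925010-15925309, minus strand: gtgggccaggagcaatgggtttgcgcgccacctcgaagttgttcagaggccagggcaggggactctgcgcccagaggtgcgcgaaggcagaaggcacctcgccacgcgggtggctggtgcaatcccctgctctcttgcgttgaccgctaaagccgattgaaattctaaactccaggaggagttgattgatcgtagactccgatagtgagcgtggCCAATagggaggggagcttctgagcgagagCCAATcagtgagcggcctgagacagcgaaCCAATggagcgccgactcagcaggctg
Phgdh, chr3:98339920-98340219, minus strand: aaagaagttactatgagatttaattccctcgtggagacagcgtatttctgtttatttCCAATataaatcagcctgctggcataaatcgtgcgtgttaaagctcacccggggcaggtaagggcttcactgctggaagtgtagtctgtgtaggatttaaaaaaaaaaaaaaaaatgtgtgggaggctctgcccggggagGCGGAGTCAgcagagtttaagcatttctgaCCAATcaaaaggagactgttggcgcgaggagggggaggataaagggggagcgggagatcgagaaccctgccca
Mthfd1l, chr10:3972825-3973124, plus strand: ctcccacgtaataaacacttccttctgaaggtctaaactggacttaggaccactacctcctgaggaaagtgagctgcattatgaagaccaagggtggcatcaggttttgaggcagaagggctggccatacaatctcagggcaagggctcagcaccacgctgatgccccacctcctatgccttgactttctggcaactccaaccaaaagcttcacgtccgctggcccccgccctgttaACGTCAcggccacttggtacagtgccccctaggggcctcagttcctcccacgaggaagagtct
RefSeq windows were found for 8 of the 9 genes, all but Aldh1l2, and Psat1 has another window that is not shown. The annotated starts can differ from the gene bounds given above. On the minus strand a gene begins at its highest position, 15947337 for Psat1, 83325908 for Mthfd2 and 60811718 for Shmt1. The windows of Psat1 (up to 15925309), Mthfd2 (up to 83317854) and Shmt1 (up to 60811515) lie inside those bounds. The motifs searched were the core of the ATF4 composite element (TGATGNAA), the E-box bound by MYC (CACGTG), the cyclic AMP response element half-site (TGACGT), the core of the antioxidant response element (TGACNNNGC), the AP-1 site (TGANTCA) and the CCAAT box (CCAAT), bound by NF-Y. The antioxidant element can overlap the AP-1 site. The capitals of Mthfd1 and Psat1 are CCAAT boxes, those of Phgdh are CCAAT boxes and an antioxidant element core, and those of Mthfd1l are a cyclic AMP half-site. A CCAAT box stood in the windows of 6 of the 8 genes, all except Shmt2 and Mthfd1l, against 37.4% of all 32851 promoter windows. The cyclic AMP half-site was found in 2 of 8 (Mthfd1l and Psph; 7.51% of all windows) and the antioxidant core in 2 of 8 (Phgdh and Psph; 12.4%). No window of the 8 held the ATF4 core (3.97% of all windows), the E-box (7.15%) or the AP-1 site (7.81%). A match is a description of letters, and elements of these genes can lie outside these windows.

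Genes around the folate cycle were lower in part. Counts of list genes past 2-fold are on the log2((PKCi + 1)/(CON + 1)) scale, which shrinks the ratio of low genes, and folds beside a gene remain plain ratios of CPM. Of 19 other folate enzymes and transporters 15 were measured, with a median log2 ratio of −0.86. On the log2 scale, 6 were lower by 2-fold or more and 0 were higher by as much. Mthfs, which acts on formyltetrahydrofolate, had 23 counts in the PKCi library and 6 in the CON library, a plain ratio of 3.84 (95% interval 1.52 to 11.5) and a log2 ratio of 0.82. The lowest log2 ratio was that of Slc19a1, the reduced folate carrier of the plasma membrane, at 17.0 CPM in the PKCi library and 55.1 CPM in the CON library (3.23-fold lower). Slc25a32, the mitochondrial folate carrier, was at 19.8 CPM in the PKCi library and 46.9 CPM in the CON library. Fpgs, which adds the glutamate tail that keeps folate in the cell, was 2.21-fold lower, and Ggh, which removes that tail, was 1.60-fold higher (30.6 and 19.1 CPM). Tyms, thymidylate synthase, was 2.04-fold lower, and Atic, which uses formyltetrahydrofolate in purine synthesis, was 2.14-fold lower. Folr2, Ftcd and Dmgdh had 0 counts in both libraries, which allows up to 0.187 CPM in the PKCi library and 0.186 CPM in the CON library.

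Glycine cleavage, the methionine cycle and the handling of serine gave mixed values. Of the 4 glycine cleavage genes, Amt, the aminomethyltransferase, was 2.96-fold higher (71 counts in the PKCi library and 24 in the CON library), and Gcsh was 1.88-fold lower. Of 14 genes of the methionine cycle and transsulfuration 9 were measured, with 1 at least 2-fold lower (Mtap, a methionine salvage gene, 28 and 87 counts in the PKCi and CON libraries) and 0 higher on the log2 scale. Their median was −0.41. Cbs, the first enzyme of transsulfuration, had 23 counts in the PKCi library and 8 in the CON library, a plain ratio of 2.88 (95% interval 1.24 to 7.44) and a log2 ratio of 0.70. Ahcy, which hydrolyses S-adenosylhomocysteine, was 1.78-fold lower, Mat2a, which makes S-adenosylmethionine, 1.33-fold lower, and methionine synthase Mtr 1.35-fold lower. The 8 measured serine and glycine transport genes had a median of 0.17, with 0 lower by 2-fold or more and 1 higher on the log2 scale. Sfxn2, a sideroflexin with 94 counts in the PKCi library and 190 in the CON library, was 2.02-fold lower as a plain ratio, with a log2 ratio of −0.90. The gene that was higher was Sfxn3, of the same family, at 72.9 CPM in the PKCi library and 28.2 CPM in the CON library, whereas Sfxn1, a mitochondrial serine carrier, was 1.60-fold lower (132 and 212 CPM). Slc38a2, a plasma membrane carrier of small neutral amino acids, was 1.63-fold higher (827 and 507 CPM). Of 11 measured genes of serine and glycine use 1 was at least 2-fold lower, Gcat (161 counts in the PKCi library and 402 in the CON library), which acts in threonine breakdown to glycine. Sdsl, a serine dehydratase relative with 29 counts in the PKCi library and 13 in the CON library, had a plain ratio of 2.23 (95% interval 1.13 to 4.68) and a log2 ratio of 0.63. The median was 0.08, and the serinc genes Serinc1 and Serinc3 were 1.55-fold and 1.85-fold higher.

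Regulators known to act on serine and folate genes differed by under 2-fold, as most measured genes did. ATF4 is a known activator of serine synthesis and mitochondrial folate genes, MYC raises many of them, and NRF2, encoded by Nfe2l2, acts through ATF4 in human lung cancer cells. Of 10 measured regulators 0 were at least 2-fold different, with a median of 0.13. Atf4 messenger RNA was at 568 CPM in the PKCi library and 631 CPM in the CON library (1.11-fold lower), Myc at 128 and 101 CPM, and Nfe2l2 at 326 and 214 CPM in the same order. ATF4 is also set by translation, which messenger RNA levels do not show. Of 25 measured ATF4 target genes 4 were at least 2-fold higher, 2 at least 2-fold lower, and the median was −0.13. The 4 were the cystine carrier gene Slc7a11 (324 CPM in the PKCi library and 64.1 CPM in the CON library), Nupr1 (2.86-fold), Ddit4 (2.54-fold) and Trib3 (2.30-fold). The 2 were Stc2 (3.96-fold lower) and the amino acid carrier gene Slc7a5 (2.38-fold lower). Asns, asparagine synthetase, was at 291 CPM in the PKCi library and 312 CPM in the CON library (1.07-fold lower), and Pck2 was 1.19-fold lower.

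Purine synthesis, which consumes glycine and formyl groups, had a median of −0.86 over 13 measured genes, of which Gart and Atic are also in the folate list. Gart is the middle gene of both lists, so their equal medians are the value of a single gene. Of the 13, 4 were lower by 2-fold or more and 0 were higher by as much. The 4 were Prps1 (2.62-fold lower), Atic, Impdh2 (2.09-fold lower) and Ppat (2.06-fold lower). Of 5 glycolytic genes around 3-phosphoglycerate 0 were at least 2-fold different, and the median was −0.16. Pgk1, the enzyme that makes 3-phosphoglycerate, was at 1835 CPM in the PKCi library and 1723 CPM in the CON library. Gapdh was 1.61-fold lower (206 and 332 CPM), a value that is uncertain because reads of Gapdh can be shared with its many processed pseudogenes. All list counts are read against the shares of 5.13% and 6.53% of measured genes at least 2-fold lower and higher, and no list was tested against other genes.

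**Figure D5:**
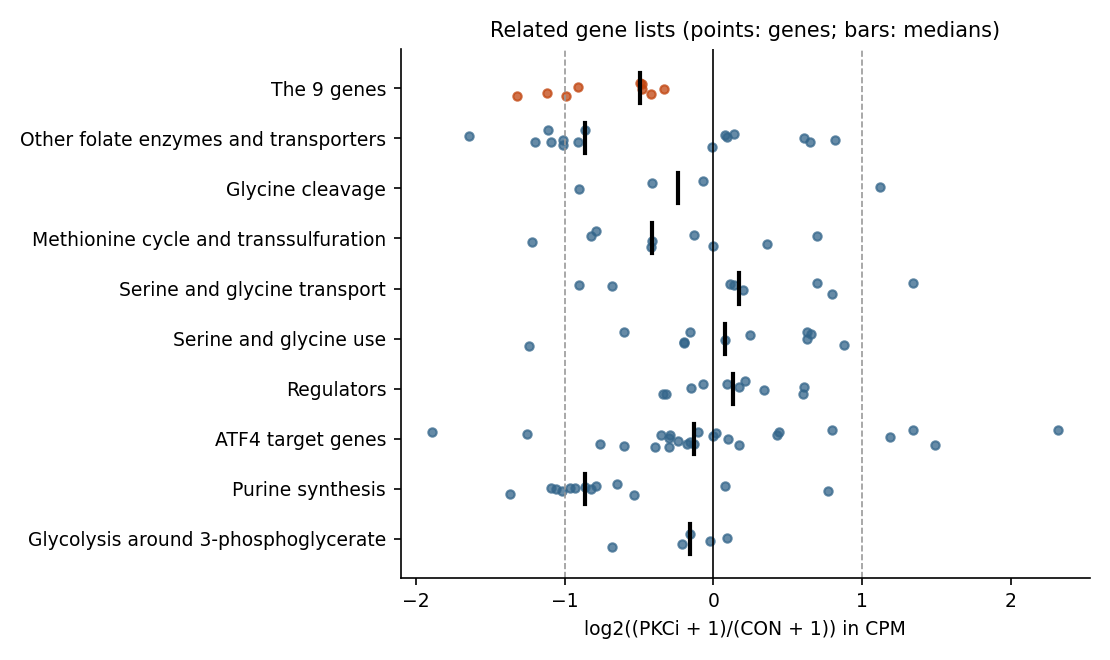
log2((PKCi + 1)/(CON + 1)) in CPM for the measured members of the 9 genes (orange) and of each related list (blue), with black bars at the medians and dashed lines at 2-fold in either direction. The medians of the other folate genes and of the purine genes, both −0.86, are the value of Gart, a gene in both lists. The regulators lie between −0.34 and 0.61, and the ATF4 target genes run from −1.89 to 2.32.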

How the data were processed

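Messenger RNA was measured in 2 libraries, grouped by the treatment in the labels. The submitters' processing notes name HISAT2 2.0.5 and the builds GRCm38 and mm10. How reads were counted, with which annotation and whether by strand, is not given in the sources used here. A single table, deposited by the authors, gives counts per gene, which are whole numbers although its name speaks of FPKM, and gene lengths in bases. Unassigned per-sample columns numbered 0. All 9 genes had the same position in GENCODE M21.

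Counts were divided by the library total (CPM) or by listed length and then scaled (TPM). Genes that reached 1 CPM in either library were measured, and the log2 ratio used a pseudocount of 1 CPM. Intervals at 95% are exact conditional binomial (Clopper-Pearson) for folds, exact conditional for ratios of ratios, exact Poisson for TPM and Wilson for shares (Python 3.11.15, scipy 1.17.1). A count of 0 allows up to 3 counts. With 1 library per group no test was made, and edgeR 4.0.16 supplied scaling factors for the alternatives only. The interval and fold steps were tested on simulated data that held counting error only, with planted folds larger than those of the 9 genes. That test says nothing of variation between cultures. All 9 genes are named. Of the related lists, genes at least 2-fold different and a preset set are named, except some that are not reported here; Ggh, Mthfs, Cbs, Sfxn2, Sdsl, Col1a1, Pdgfra, Dcn, Gcsh, Slc38a2, Serinc1 and Serinc3 were picked after their values were seen. The members and lists were chosen with earlier results of these data known.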

Additional observations from a re-analysis of the deposited data

How the results depend on the processing

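Library scaling (TMM, RLE, upper-quartile or TPM), the pseudocount (0.1 or 5 CPM) and the filter (none, 5 CPM or protein-coding genes only) left all 9 genes lower in the PKCi library. The median over them ranged from −0.50 to −0.46 on the log2 scale, and the number at least 2-fold lower was 2 except with TMM scaling, where Phgdh made it 3. With a pseudocount of 5 CPM the at least 2-fold lower genes numbered 3 of the other folate list, 0 of the methionine list and 0 of the serine and glycine use list, and 0 glycine cleavage genes were at least 2-fold higher, as also with a filter of 5 CPM. With a pseudocount of 0.1 CPM, 1 gene each of the other folate, methionine and serine and glycine use lists was at least 2-fold higher, and 1 transport gene at least 2-fold lower; these are genes of low level, whose ratio the pseudocount shrinks. List counts also depended on library scaling. The other folate genes at least 2-fold lower numbered 6 in the main setting and 4 with upper-quartile or TPM scaling. The purine genes at least 2-fold lower numbered 4 in the main setting and 3 with upper-quartile scaling or a pseudocount of 5 CPM. Without length, 5 of the 9 genes kept their place in the order of levels in each library. The share of all measured genes at least 2-fold lower ranged from 2.64% to 7.24%. No paired analysis was possible because each group has a single library. Counting error is small for the 9 genes; error between cultures was not measured.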
